A study of Homo sapiens with 12 samples.

Results

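Histone genes were identified by symbol in RNA-seq counts of SU-DHL-4 cells, an established line of germinal centre B-cell-like diffuse large B-cell lymphoma (DLBCL). Symbols of the H1, H2A, H2B, H3 and H4 families were taken, including the H2AZ, H2AX, H2AJ, H3 variant and macroH2A names. Of 97 matching symbols, 13 pseudogenes were removed, and 20 others held fewer than 10 counts over the 12 libraries, 8 of them none. The remaining 64 of the 46863 symbols in the table comprised 52 replication-dependent genes of the histone clusters (cluster genes), 10 histone variants and 2 non-coding RNAs, H1-10-AS1 and H2AZ1-DT, that belong to neither class. Among the cluster genes, 42 lie on chromosome 6 and 10 on chromosome 1, and 4 encode H1, 13 H2A, 14 H2B, 10 H3 and 11 H4. Cells labelled wild type had been exposed for 72 h to the solvent DMSO (DMSO), 1 µM of the SYK inhibitor entospletinib (Ento), 0.01 µM of the bivalent BET inhibitor AZD5153 (AZD), or both at these doses (Ento+AZD). Each group had 3 libraries from 1 cell line, numbered 1 to 3 and described as biological replicates, and the comparisons ask how each agent and their combination altered transcription.

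Core histones H2A, H2B, H3 and H4 form the octamer around which DNA is wrapped, and H1 binds the DNA entering and leaving it. Cluster genes are transcribed mainly in S phase, when new DNA needs histones. Their mRNAs normally carry no poly(A) tail and end instead just after a short stem-loop that is bound by SLBP, the stem-loop binding protein. Variant genes such as those of H2A.Z and H3.3 are expressed throughout the cell cycle, contain introns in most cases and give polyadenylated mRNAs. Polyadenylated RNA was enriched for these libraries, so that the counts of cluster genes are those of the RNA that remained after this step.

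A stem-loop of 16 bases, with stems of 6 bases and a loop of 4, was found 22 to 67 bases after the stop codon in 50 of the 52 cluster genes. The search covered 150 bases of GRCh38 after the stop codon of GENCODE release 44 and allowed 1 mispaired position. Of the 10 variants, H2AX and H3-4 carried one. The genes on which the results below turn have the following stem-loops, written as DNA from 5′ to 3′ with the stem-loop in capitals and 5 flanking bases on each side.
H1-4 (chr6:26157090-26157115, plus strand): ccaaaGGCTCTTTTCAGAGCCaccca
H1-2 (chr6:26055739-26055764, minus strand): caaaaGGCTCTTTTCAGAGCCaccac
H2BC12 (chr6:27146361-27146386, minus strand): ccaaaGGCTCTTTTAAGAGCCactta
H2BC5 (chr6:26158582-26158607, plus strand): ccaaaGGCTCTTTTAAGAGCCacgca
H2BC4 (chr6:26123467-26123492, minus strand): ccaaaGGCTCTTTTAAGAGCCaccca
H4C3 (chr6:26104312-26104337, plus strand): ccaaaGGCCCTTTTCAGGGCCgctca
H4C12 (chr6:27831173-27831198, minus strand): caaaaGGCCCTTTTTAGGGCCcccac
H2AX (chr11:119094893-119094918, minus strand): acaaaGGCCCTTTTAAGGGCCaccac
The form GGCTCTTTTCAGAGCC was the most frequent and occurred in 31 cluster genes, among them H1-2 and H1-4. H2BC4, H2BC5 and H2BC12 shared a second form that differs in the loop, and all 10 H4 genes with a stem-loop had forms that start with GGCCCT, as H2AX did. The gene models of RefSeq (GRCh38.p14) end 1 to 18 bases past the stem-loop in 44 cluster genes. In 6 others they run on, by 1729 bases in H2BC21, 8073 in H2BC12, 10302 in H2BC4, 12747 in H2BC5, 16281 in H4C15 and 29196 in H2BC18. In H2AX, which is known to give both stem-loop and polyadenylated mRNA, the model runs on by 1024 bases.

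Library totals lay between 18121993 and 24675830 counts, and 1 count corresponded to 0.0393 to 0.0564 CPM (counts scaled to the size of the library, here with TMM normalization). The 52 cluster genes together took 0.00131% to 0.00369% of the counts of a library, 252 to 773 counts, whereas the 10 variants took 0.118% to 0.192%. Counting error is therefore large for most cluster genes, and it was not separated from the spread between libraries. The filter on low counts left 16835 genes for testing, among them 16 of the 52 cluster genes, 8 of the 10 variants and H1-10-AS1. The 39 members that did not pass held 10 to 84 counts in all and at most 22 in a library. Library 2 was the lowest of its group for the cluster sum in all 4 groups. The B cell markers were all well measured, with sums of the 8 genes from 4675 to 8603 CPM, while the 5 T cell markers summed to 1.66 to 7.78 CPM and the 5 myeloid markers to 0.442 to 2.72 CPM. CD3D and S100A8 were at 0 counts in all libraries. The T cell marker sum was 0.484 times DMSO with AZD and 0.363 times with Ento+AZD, where TRAC, a T cell receptor gene, fell (-1.89 ± 0.25, adjusted p = 5.78e-05). With Ento+AZD 4 of the 8 B cell markers rose and none fell at an adjusted p under 0.05. Over all tested genes, 19.2% were higher and 20.8% lower by this threshold. The part of these shifts in the results was not tested.

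Per kilobase of the GENCODE canonical transcript, every tested variant lay above every tested cluster gene with DMSO. H2AZ1, one of the genes of H2A.Z, was the highest at 422 ± 64.1 CPM per kb (SD, n = 3). H3-3B followed at 158 ± 23.1, H2AZ2 at 116 ± 6.92 and MACROH2A1, which encodes macroH2A1, at 105 ± 10.8 CPM per kb (SD, n = 3). The ranges of mean ± SD of H2AZ2 and MACROH2A1 overlapped. H3-5, a retrocopy of H3-3B, had 59.8 ± 9.38 and H3-3A 58.0 ± 4.90 CPM per kb, which also overlapped. H1-10 (24.9 ± 0.863) and H2AX (20.8 ± 3.32 CPM per kb) were the lowest of the tested variants. The highest cluster gene was H2BC12 with 7.82 ± 2.19 CPM per kb, followed by H2BC4 (4.60 ± 0.960), H4C12 (3.50 ± 2.08), H4C11 (2.97 ± 1.58) and H4C3 (2.22 ± 0.475). H2BC12 alone gave 22.9% of all counts of cluster genes.

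The sum of the cluster genes was not separated between groups. It was 28.9, 18.1 and 24.9 CPM in the DMSO libraries 1 to 3, 26.1, 13.5 and 31.8 with Ento, 29.5, 13.5 and 37.4 with AZD, and 27.6, 15.9 and 35.3 with Ento+AZD. The ratio of the group means to DMSO was 0.993 with Ento, 1.12 with AZD and 1.10 with Ento+AZD, and all groups overlapped. With Ento+AZD each family overlapped with DMSO. The H1 genes summed to 1.10, the H2A genes to 0.968 and the H3 genes to 0.815 times DMSO. The H4 genes summed to 0.647 times DMSO and lay below the DMSO library of the same number in each case (ratios 0.598, 0.721 and 0.657), whereas the H2B genes summed to 1.49 times DMSO (ratios 1.36, 1.04 and 2.09). Without H2BC12, a comparison added after the data were seen, the other 13 H2B genes summed to 1.12 times DMSO, and Ento+AZD 2 was below DMSO 2 (3.29 against 4.67 CPM). The sum of the variants was likewise close to DMSO, with 1543 ± 105 CPM with DMSO, 1631 ± 355 with Ento, 1662 ± 267 with AZD and 1528 ± 321 with Ento+AZD (SD, n = 3). In bulk RNA, fewer cells that express a gene and less RNA per cell cannot be told apart.

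**Figure D1:**
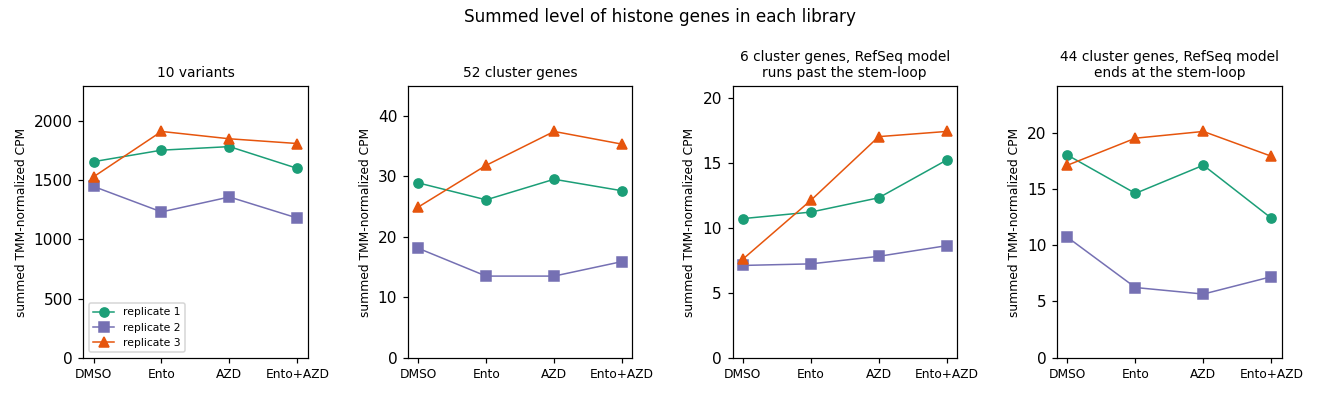
Summed TMM-normalized CPM (y axes, from 0) of the variants, of all cluster genes and of the cluster genes split by their RefSeq gene model, by exposure (x axes), with 1 point per library and lines that only link libraries of the same number. The sum of the 6 cluster genes whose model runs past the stem-loop was above DMSO for each number under each exposure, which did not hold for Ento 1, Ento 2 and Ento+AZD 2 without H2BC12, and the other sums went up for some numbers and down for others.

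Ento alone moved no histone gene past the threshold of an adjusted p of 0.05 (edgeR's quasi-likelihood test, Benjamini-Hochberg adjustment over all tested genes). Of all tested genes, 3.66% were called lower and 4.66% higher. Among the 24 tested histone protein genes, 3 had an unadjusted p under 0.05, beside 4098 of all 16835 tested genes. DESeq2 called 1 of the 24, H2AX, beside 1342 of all tested genes. H2AX encodes the variant that is phosphorylated at DNA breaks, and its log2 fold change was 0.43 ± 0.13 (SE) with an adjusted p of 0.0517 by edgeR and 0.0279 by DESeq2. It had 31.7, 28.8 and 39.0 CPM with DMSO and 46.7, 26.9 and 68.0 CPM with Ento, so that library 2 did not share the difference. Leaving out 1 library gave 2 called variants without DMSO replicate 2 and 1 without replicate 2 of Ento or of Ento+AZD. The shares of all tested genes called in these fits are not given here. The median log2 fold change was -0.17 for the 16 cluster genes tested and 0.15 for the 8 variants, against 0.01 for all tested genes.

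With AZD, 4 histone genes rose and none fell, where 9.57% of all tested genes were called higher and 12.7% lower. The 4 were 2 of 16 tested cluster genes, H2BC21 and H2BC12, and 2 of 8 tested variants, H3-3B and H3-5. H2BC21, an H2B gene of the chromosome 1 cluster (chr1:149884459-149886682), had 1.27, 0.229 and 0.786 CPM with DMSO and 2.15, 0.374 and 2.56 CPM with AZD. Each AZD library was above the DMSO library of its number, although the groups overlapped, and the log2 fold change was 1.12 ± 0.31 (SE; adjusted p = 0.0210). This was the one histone gene that was also a differentially expressed gene (DEG) by the study's second criterion, a fold change over 2. H2BC12 rose by a log2 fold change of 0.64 ± 0.21 (adjusted p = 0.0447).

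H3-3B, one of the genes of H3.3, had 494, 414 and 371 CPM with DMSO and 588, 493 and 618 CPM with AZD (log2 fold change 0.40 ± 0.10 SE, adjusted p = 0.0145). H3-5 had 75.2, 69.6 and 55.0 CPM with DMSO and 92.6, 81.4 and 97.7 CPM with AZD, with no overlap of the groups (0.44 ± 0.11 SE, adjusted p = 0.0152). H3-3A, which encodes the same H3.3 protein as H3-3B, had a log2 fold change of 0.10 ± 0.08 and was not called. All 4 calls were lost when the replicate number was dropped from the model, where calls over all tested genes fell from 3745 to 326. All 4 were lost too when AZD replicate 3 was left out. Called cluster genes numbered 0 also without DMSO replicate 3, and 1 without any of the Ento libraries or Ento+AZD replicate 1. Called variants numbered 0 without AZD replicate 2 or 3 and 5 without DMSO replicate 2. For the fits with 1 library left out, the shares of all tested genes called are not given here. No cluster gene was called lower with AZD, with log2 fold changes down to -0.78 ± 0.41 (SE) in H1-4.

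**Figure D2:**
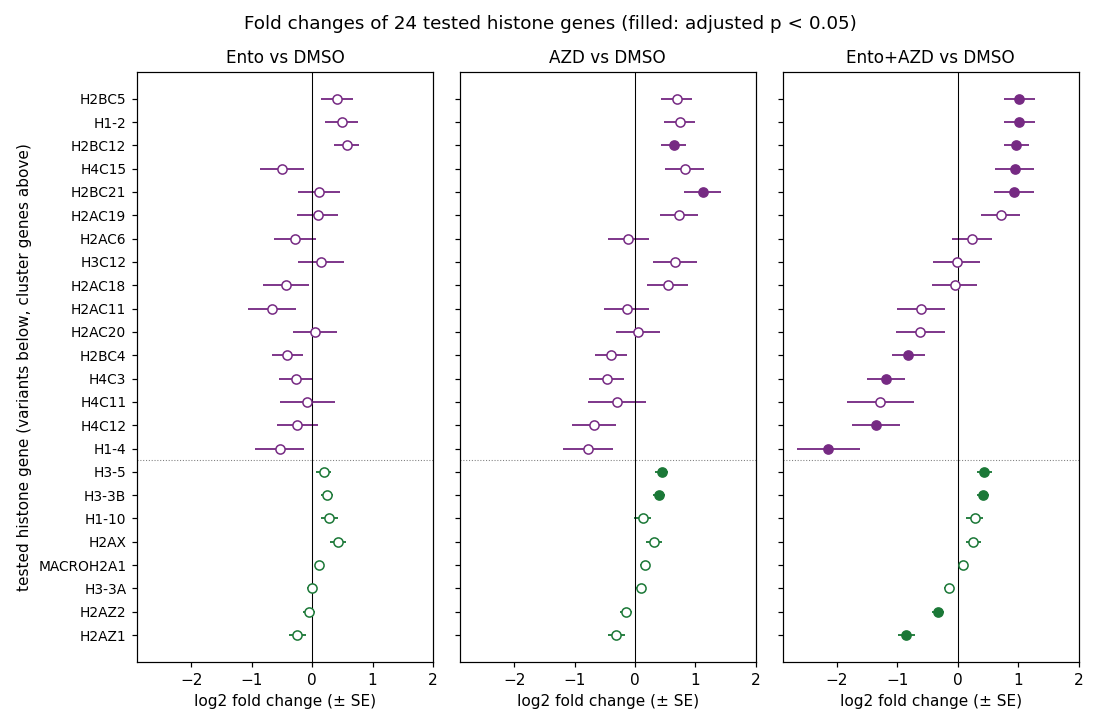
Log2 fold change against DMSO (x axes, bars ± SE) of the 24 tested histone protein genes (y axis) in each exposure, with cluster genes in purple, variants in green and filled points at an adjusted p under 0.05. Calls numbered 0 with Ento, 4 with AZD and 13 with Ento+AZD, beside 1401, 3745 and 6736 of all 16835 tested genes. With Ento+AZD, H1-4 at -2.14 and H2BC5 and H1-2 at 1.02 are the ends of the range.

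With Ento+AZD, 9 of the 16 tested cluster genes passed the threshold, 4 lower and 5 higher, and 4 of the 8 tested variants, 2 lower and 2 higher. Of all tested genes, 20.8% were called lower and 19.2% higher. The median log2 fold change was -0.04 for the tested cluster genes, 0.18 for the tested variants and 0.01 for all tested genes. With 1 library left out, the cluster median ranged from -0.57 without DMSO replicate 3 to 0.29 without DMSO replicate 1. It was -0.37 without Ento+AZD replicate 3. Without the filter on low counts the median was -0.59, over the cluster genes kept. The 36 cluster genes that were not tested summed to 0.735 times DMSO with Ento+AZD (ratios 0.635, 0.463 and 1.07). At a fold change over 2 as well, 3 cluster genes (H1-4, H4C12 and H4C3) were underexpressed and 2 (H1-2 and H2BC5) overexpressed, against 4.89% and 3.43% of all tested genes. When the replicate number was dropped from the model, H2BC12 alone was still called (adjusted p = 0.0443). Calls over all tested genes then fell from 6736 to 2398. Without Ento+AZD replicate 1, 4 cluster genes were called, namely H4C12 lower and H2BC12, H1-2 and H2BC21 higher. The share of all tested genes called in that fit is not given here. The calls of H2BC12 and H1-2 held whichever library was left out, and those of H1-4, H2BC5 and H4C3 were lost only without Ento+AZD replicate 1. The call of H4C12 was lost without replicate 3 of DMSO or Ento+AZD. Those of H2BC4, H4C15 and H2BC21 were each lost without any 1 of 4 libraries, and DESeq2 did not call H4C3, H4C15 or H2BC21.

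Linker histone genes went in opposite directions. H1-4 (chr6:26156329-26157115), a somatic H1 gene, had 19, 3 and 14 counts with DMSO, 7, 4 and 10 with Ento, 9, 2 and 7 with AZD, and 2 in each of the Ento+AZD libraries. The Ento+AZD libraries were all below DMSO, at 0.0978, 0.0953 and 0.113 CPM against 0.755, 0.137 and 0.550 CPM. The fitted log2 fold change was -2.14 ± 0.52 (SE; adjusted p = 0.00479). From the summed counts alone, 6 against 36, the normalized ratio was 0.204 with an exact 95% interval of 0.0703 to 0.489, which covers counting error only. H1-2 (chr6:26055740-26056470), another somatic H1 gene of the same cluster, had 0.994, 1.01 and 0.864 CPM with DMSO and 2.10, 1.62 and 2.09 CPM with Ento+AZD. The groups did not overlap, and the log2 fold change was 1.02 ± 0.26 (SE; adjusted p = 0.00619). No stretch of 75 bases, the length of a read, in either transcript occurs in another annotated gene, so that their reads can be told apart.

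Of the H4 genes, H4C3 and H4C12 were called lower with Ento+AZD and H4C15 higher. H4C3 (chr6:26103933-26104337) had 0.954, 0.687 and 1.06 CPM with DMSO and 0.293, 0.238 and 0.677 CPM with Ento+AZD, without overlap, and a log2 fold change of -1.19 ± 0.32 (SE; adjusted p = 0.00958). It shares no 75-base stretch with another gene. H4C12 had 1.27, 0.595 and 2.20 CPM with DMSO and 0.734, 0.286 and 0.508 CPM with Ento+AZD, so that the groups overlapped while each library was below the DMSO library of its number (-1.35 ± 0.40, adjusted p = 0.0159). Of its 75-base stretches, 92.0% also occur elsewhere, mainly in H4C11, so that the values of this pair are uncertain one by one. H4C11 had a log2 fold change of -1.28 ± 0.56 and was not called (adjusted p = 0.0817). H4C15, on chromosome 1, was higher, with 0.795, 0.321 and 0.668 CPM with DMSO and 1.22, 0.429 and 1.92 CPM with Ento+AZD (0.94 ± 0.32, adjusted p = 0.0285). All of the 75-base stretches of its short transcript also occur in H4C14, which was too low to test and had 0.119, 0.0916 and 0.0393 CPM with DMSO and 0.293, 0.143 and 0.564 CPM with Ento+AZD.

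H2B genes moved both ways. H2BC12 (chr6:27146361-27146855), the most abundant cluster gene, had 5.05, 3.66 and 2.91 CPM with DMSO, 6.56, 4.50 and 6.29 with Ento, 5.73, 4.28 and 8.37 with AZD, and 8.46, 5.38 and 9.36 with Ento+AZD. The Ento+AZD libraries were all above the DMSO libraries, and the log2 fold change was 0.97 ± 0.21 (SE; adjusted p = 0.00230). Its call held under all 16 alternatives, although 39.0% of its 75-base stretches occur in other histone sequences. H2BC5 (chr6:26158122-26171349) had 0.835, 0.916 and 1.18 CPM with DMSO and 2.20, 1.67 and 1.97 CPM with Ento+AZD, again without overlap (1.02 ± 0.26, adjusted p = 0.00614). H2BC21 had 1.57, 0.667 and 2.09 CPM with Ento+AZD, which overlapped with DMSO (0.93 ± 0.33, adjusted p = 0.0342). H2BC4 went the other way, from 2.62, 1.83 and 1.89 CPM with DMSO to 1.52, 0.476 and 1.75 CPM with Ento+AZD, without overlap (-0.82 ± 0.27, adjusted p = 0.0279). The GENCODE model of H2BC4 (chr6:26086317-26123926) overlaps exons of HFE and of an unnamed gene on the opposite strand. With both strands searched, 100.0% of the 75-base stretches of its short transcript occur in other annotated genes, most of all in that unnamed gene. H2BC6 and H2BC5 came next, and of their own stretches 10.6% and 2.9% are shared with any other gene. The value of H2BC4 is therefore uncertain. The use of the strand in counting is not given in the sources used here.

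No H2A or H3 cluster gene was called with Ento+AZD. The 5 tested H2A genes ranged from -0.62 ± 0.41 in H2AC20 to 0.71 ± 0.32 in H2AC19, and the tested H3 gene H3C12 had -0.02 ± 0.39 (log2 fold change ± SE). H2AC18 and H2AC19 are near-identical copies, with 100.0% and 99.8% of their 75-base stretches shared, and read assignment between them is uncertain.

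**Figure D3:**
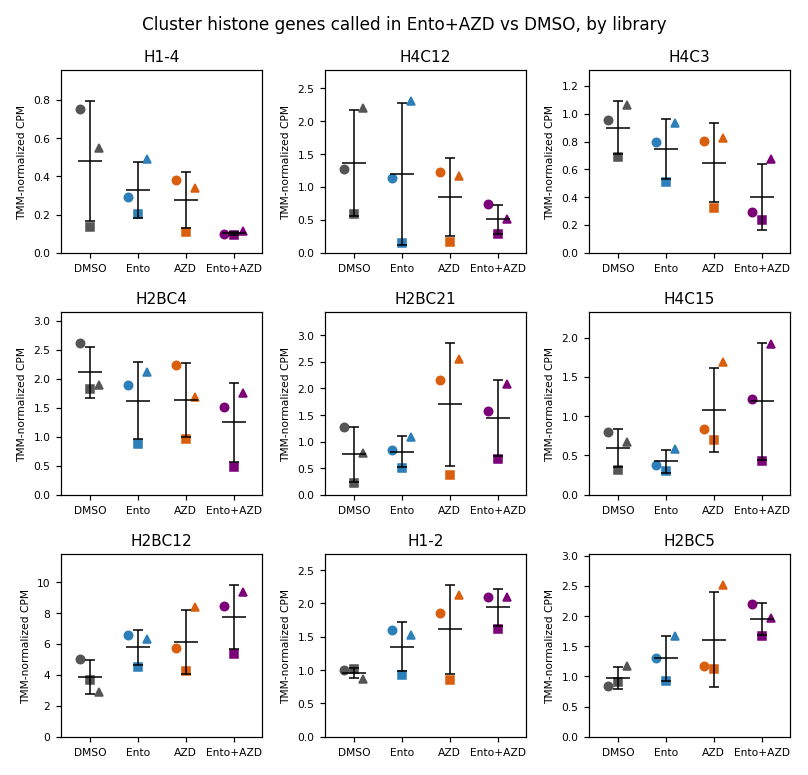
TMM-normalized CPM (y axes, from 0) of the 9 cluster genes called with Ento+AZD, by exposure (x axes), with circles, squares and triangles for libraries 1, 2 and 3 and bars for the mean ± SD. H1-4, H4C12, H4C3 and H2BC4 were lower with Ento+AZD than with DMSO, and H2BC21, H4C15, H2BC12, H1-2 and H2BC5 were higher.

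The direction of the cluster genes was then set beside their annotated 3′ ends, a property that was looked at after the values were known and was not tested. Of the 5 tested cluster genes whose RefSeq model runs past the stem-loop, 4 were called higher with Ento+AZD (H2BC12, H2BC5, H2BC21 and H4C15) and 1 lower (H2BC4). Of the 11 whose model ends near the stem-loop, 1 was called higher (H1-2) and 3 lower (H1-4, H4C3 and H4C12). Both genes called higher with AZD, H2BC21 and H2BC12, were among the former. The split depends on the annotation, as a comparison added after the data were seen showed. In GENCODE the model of H2BC12 ends 5 bases past the stem-loop, while that of H2AC6, which was not called (0.23 ± 0.33), runs on by 14432 bases. By GENCODE, 12 cluster genes run on, of which 5 were tested, with 3 called higher with Ento+AZD, 1 lower and 1 not called. Of the 11 tested genes with short GENCODE models, 2 were called higher (H2BC12 and H1-2) and 3 lower, and 1 gene of either kind was higher with AZD. Summed over all 6 genes with long RefSeq models, tested or not, the level was 10.7, 7.10 and 7.58 CPM with DMSO, 11.2, 7.22 and 12.1 with Ento, 12.3, 7.80 and 17.0 with AZD, and 15.2, 8.62 and 17.4 with Ento+AZD. Each exposed library was above the DMSO library of its number, with ratios from 1.21 to 2.29 with Ento+AZD, though the groups overlapped. This order rested on H2BC12 for Ento and Ento+AZD, but not for AZD. Without H2BC12, the other 5 genes had 5.68, 3.44 and 4.68 CPM with DMSO and 4.67, 2.71 and 5.80 with Ento. They had 6.62, 3.53 and 8.61 CPM with AZD, and 6.70, 3.24 and 8.01 with Ento+AZD. Ento 1, Ento 2 and Ento+AZD 2 were thus below the DMSO library of their number, while each AZD library was above its own. The 12 genes with long GENCODE models had ratios of 1.14, 0.862 and 1.95 with Ento+AZD. The 44 genes with short RefSeq models summed to 18.0, 10.7 and 17.1 CPM with DMSO and 12.4, 7.20 and 17.9 CPM with Ento+AZD, with ratios of 0.690, 0.671 and 1.05. The 6 genes with long RefSeq models gave 43.8% of all counts of cluster genes.

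**Figure D4:**
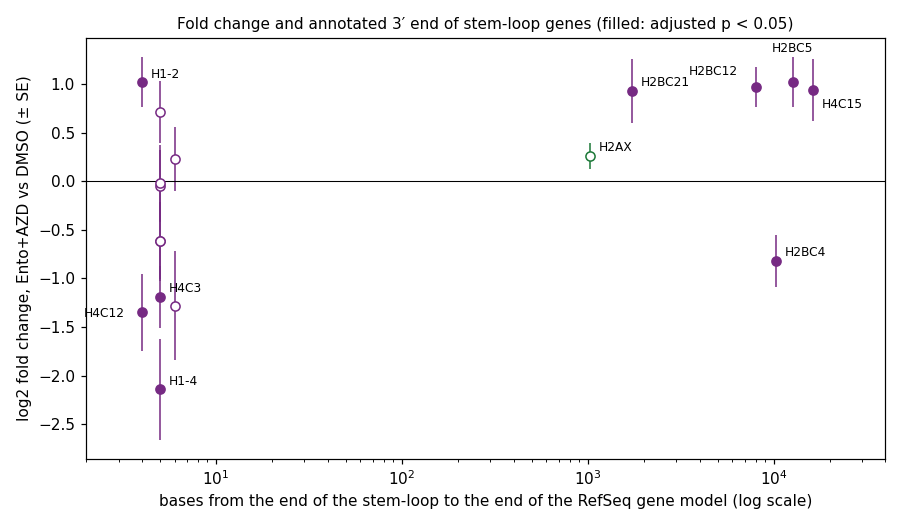
Log2 fold change with Ento+AZD against DMSO (y axis, bars ± SE) of the tested genes with a stem-loop, by the number of bases from the end of the stem-loop to the end of the RefSeq gene model (x axis, log scale), with cluster genes in purple, H2AX in green and filled points at an adjusted p under 0.05. H2BC21, H2BC12, H2BC5 and H4C15 lie between 0.93 and 1.02 at 1729 bases or more, where H2BC4 at -0.82 is the exception, and genes whose model ends near the stem-loop range from -2.14 in H1-4 to 1.02 in H1-2. By GENCODE, H2BC12 would stand at 5 bases and H2AC6 at 14432.

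Among the variants, H2A.Z fell and an H3.3 gene rose with Ento+AZD. H2AZ1 (chr4:99948086-99950355) had 414, 305 and 379 CPM with DMSO, 379.8, 176 and 434 with Ento, 377, 199 and 349 with AZD, and 257, 121 and 269.7 with Ento+AZD. All Ento+AZD libraries were below all DMSO libraries, whereas the single agents overlapped with DMSO. The log2 fold change was -0.85 ± 0.14 (SE; adjusted p = 2.89e-04), a level of 0.555 times DMSO. The call held whichever library was left out, but not when the replicate number was dropped from the model (adjusted p = 0.156). H2AZ2 (chr7:44826791-44848087), which encodes the second H2A.Z protein, had 358, 326 and 365 CPM with DMSO and 291, 214 and 349 CPM with Ento+AZD, with overlap (-0.33 ± 0.10, adjusted p = 0.0173). Its call was lost without DMSO replicate 2 and without replicate 1 or 2 of Ento+AZD.

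H3-3B (chr17:75776434-75785893) had 602, 459 and 668 CPM with Ento+AZD, above the DMSO library of the same number in each case (log2 fold change 0.42 ± 0.10 SE, adjusted p = 0.00548). H3-5 had 97.2, 73.0 and 102 CPM with Ento+AZD (0.44 ± 0.12, adjusted p = 0.00792), a call that was lost without Ento+AZD replicate 3. H3-5 and H3-3B share few 75-base stretches, 8.5% of those of H3-5. The other tested variants were not called, with log2 fold changes of -0.14 ± 0.08 for H3-3A, 0.09 ± 0.08 for MACROH2A1, 0.26 ± 0.13 for H2AX and 0.28 ± 0.14 for H1-10, a linker histone gene with a polyadenylated mRNA. Of the stretches of H3-3A, 67.7% also occur elsewhere, mainly in pseudogenes of H3. H2AJ and H3-4 were too low to test, with at most 18 and 3 counts in a library. The antisense RNA H1-10-AS1, which shares exon sequence with H1-10 on the opposite strand, had a log2 fold change of -0.11 ± 0.21 with Ento+AZD and was not called in any comparison with DMSO, and H2AZ1-DT had at most 4 counts in a library.

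**Figure D5:**
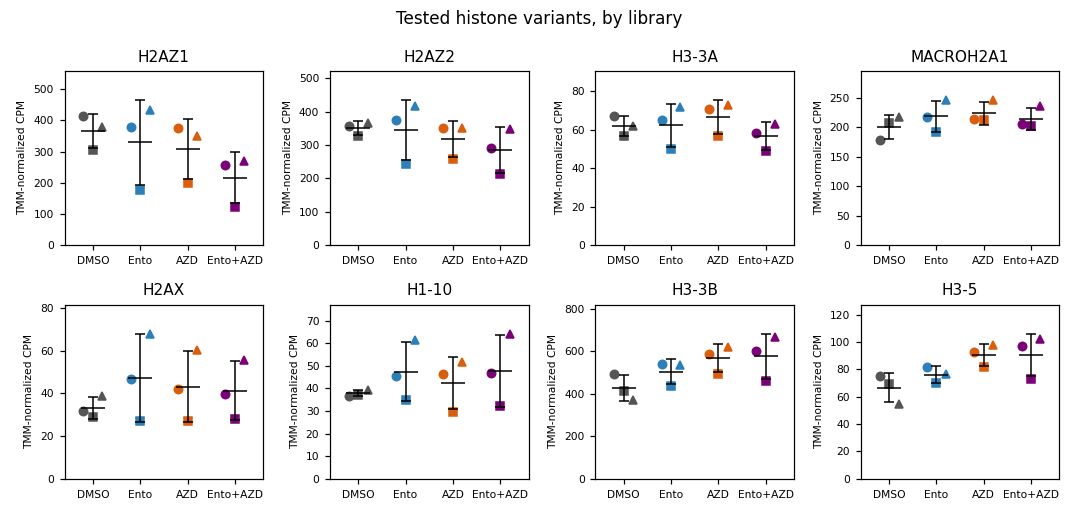
TMM-normalized CPM (y axes, from 0) of the 8 tested variants by exposure (x axes), with circles, squares and triangles for libraries 1, 2 and 3 and bars for the mean ± SD. H2AZ1 is the one variant whose Ento+AZD libraries are all below its DMSO libraries, and library 2 is the lowest of its group for all 8 with Ento, AZD and Ento+AZD, and for 4 of them with DMSO.

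The comparisons of Ento+AZD with each single agent show what the other agent added. Against Ento, 1 of the 24 tested histone protein genes fell and 1 rose, where 12.2% and 8.27% of all tested genes were called lower and higher. H2AZ1 fell by 0.60 ± 0.14 on the log2 scale (adjusted p = 0.00722), and H4C15 rose by 1.44 ± 0.35 (adjusted p = 0.00972). Against AZD, H2AZ1 alone was called, with a log2 fold change of -0.54 ± 0.14 (adjusted p = 0.0218), where 6.04% of all tested genes were lower and 5.85% higher. H2AZ1 was thus lower with both agents than with either one, in all 3 numbers. Its call against Ento was lost without Ento replicate 3, and its call against AZD when replicate 1 or 2 of AZD or of Ento+AZD was left out. The call of H4C15 was lost without Ento replicate 1 or 3 or Ento+AZD replicate 3. Without the replicate number in the model all 3 calls were lost, with adjusted p of 0.371 for H2AZ1 and 0.199 for H4C15 against Ento and 0.573 for H2AZ1 against AZD. Calls over all tested genes then fell from 3440 to 206 against Ento and from 2001 to 17 against AZD. Against Ento, 6 histone genes were called without DMSO replicate 3 and 4 without Ento replicate 2, and against AZD 2 were called without DMSO replicate 3. The shares of all tested genes called in these fits are not given here, so that these counts cannot be set against them. The interaction of the agents, the departure from the sum of the single-agent changes on the log2 scale, was called in 0% of all tested genes by edgeR and in 7 genes by DESeq2, none of them a histone gene. Before adjustment, 1652 genes were under the threshold by edgeR, of which 1 was a histone gene, H2AX, with a log2 difference of -0.48 ± 0.18 (SE; adjusted p = 0.449). Without DMSO replicate 2 it passed the threshold. The comparisons with DMSO share the DMSO libraries, so that likeness between them is not independent.

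Promoters of H2A and H2B genes are known for an octamer that binds OCT1. In RefSeq promoters (GRCh38.p14, the 250 bases before the start), the octamer ATTTGCAT was found on either strand in 11 of 14 H2B, 8 of 12 H2A, 1 of 8 H3 and none of 4 H1 and 10 H4 cluster genes with an entry, against 1.66% of all promoters. The motif CCAAT occurred in 83.3% of cluster gene promoters and 33.0% of all, and TATAAA in 68.8% and 11.1%. Overlaps between motifs were allowed. The promoters of H2BC12 and H2BC4 are shown because these H2B genes share the form of the stem-loop and a long RefSeq model but were called in opposite directions. Capitals mark the octamer, CCAAT and TATAAA on either strand.
H2BC12 (chr6:27146859-27147108, minus strand): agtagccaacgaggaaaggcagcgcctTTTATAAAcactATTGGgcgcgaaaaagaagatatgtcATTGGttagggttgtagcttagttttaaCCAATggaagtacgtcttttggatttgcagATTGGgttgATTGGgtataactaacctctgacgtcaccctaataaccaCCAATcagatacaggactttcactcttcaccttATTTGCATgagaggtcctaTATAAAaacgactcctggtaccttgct
H2BC4 (chr6:26123927-26124176, minus strand): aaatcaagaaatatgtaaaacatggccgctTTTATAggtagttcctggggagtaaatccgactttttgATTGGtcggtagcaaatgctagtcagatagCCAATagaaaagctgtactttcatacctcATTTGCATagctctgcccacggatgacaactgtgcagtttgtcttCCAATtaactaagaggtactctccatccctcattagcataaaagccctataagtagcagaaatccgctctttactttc
Both held 1 octamer, which began 46 bases before the start in H2BC12 and 123 bases before it in H2BC4. H2BC12 had TATAAA 27 bases before the start, and in H2BC4 these letters were found only further upstream on the opposite strand. A match of letters is a description and not a binding site.

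Many H2A and H2B genes are transcribed away from each other out of a shared promoter. Among the cluster genes, 9 such pairs had starts within 500 bases, at 194 to 248 bases, and in 2 of them both genes were tested. H2BC4 was lower with Ento+AZD while its neighbour H2AC6 had a log2 fold change of 0.23 ± 0.33 (adjusted p = 0.608). H2BC21 was higher while its neighbour H2AC20 had -0.62 ± 0.41 (adjusted p = 0.245). Whether the genes of a pair differed from each other was not tested.

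Genes that make, process and carry histones were examined as lists. Of 15 genes for transcription and 3′ processing of histone mRNA, 4 were lower and 2 higher with Ento+AZD, with a median log2 fold change of -0.13 against 0.01 for all tested genes, of which 20.8% were lower and 19.2% higher. LSM11, a subunit of the U7 snRNP that cuts the mRNA after the stem-loop, fell (-0.90 ± 0.10, adjusted p = 1.64e-05), and its partner LSM10 rose (0.56 ± 0.10, adjusted p = 6.25e-04). UPF1, a helicase in the decay of histone mRNA, fell (-0.44 ± 0.08, adjusted p = 5.88e-04), as did CASP8AP2, a factor of the histone locus body (-0.44 ± 0.10, adjusted p = 0.00395). SLBP had -0.14 ± 0.09 and NPAT, the coactivator of histone transcription, -0.14 ± 0.10, and neither was called. With Ento, 1 gene of this list was lower (LSM11) and 1 higher (LSM10), where 3.66% and 4.66% of all tested genes were lower and higher. With AZD 1 was lower (LSM11), against 12.7% of all tested genes.

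Of 28 histone chaperone genes, 13 were lower and 5 higher with Ento+AZD (median -0.25), beside 20.8% and 19.2% of all tested genes. With AZD 7 were lower and 1 higher, beside 12.7% and 9.57%, and none was called with Ento, beside 3.66% and 4.66%. MMS22L, which acts with TONSL at replication forks, fell (-1.29 ± 0.13, adjusted p = 1.10e-05). ANP32E, a chaperone that removes H2A.Z, fell (-1.16 ± 0.12, adjusted p = 1.42e-05), and YEATS4, a subunit of complexes that deposit H2A.Z, fell too (-0.80 ± 0.09, adjusted p = 1.97e-05). CHAF1B, a subunit of the chromatin assembly factor CAF-1 that places new H3 and H4, fell as well (-1.69 ± 0.20, adjusted p = 2.55e-05).

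Of 20 S-phase genes, 19 were lower and none higher with Ento+AZD, with a median of -1.33, where 20.8% of all tested genes were lower. The exception was SLBP, which stands in both lists. CDT1, which loads the replicative helicase, had -2.34 ± 0.22 (adjusted p = 7.08e-06), RRM1, a subunit of ribonucleotide reductase, -1.42 ± 0.16 (adjusted p = 2.01e-05) and the helicase subunit gene MCM6 -1.37 ± 0.17 (adjusted p = 3.47e-05). With AZD 9 were lower, beside 12.7% of all tested genes, and with Ento 1, CDT1, beside 3.66%. In the same libraries, 4 tested cluster genes were lower and 5 higher with Ento+AZD. The cluster sum was 1.10 times DMSO while the S-phase sum was 0.462 times DMSO. The parts of the cluster sum differed. The 6 genes with long RefSeq models summed to 1.62 times DMSO and the 44 with short ones to 0.819 times. The 36 cluster genes that were not tested summed to 0.735 times DMSO. Each of these sums of cluster genes overlapped with DMSO. The S-phase sum did not, with 2363, 2678 and 3786 CPM with DMSO and 1404, 738 and 1940 CPM with Ento+AZD. All are of RNA left after poly(A) enrichment.

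As a gauge of RNA without a poly(A) tail, 17 small RNAs that lack one were listed, of which 6 were tested. With Ento+AZD, RMRP (-2.18 ± 0.57, adjusted p = 0.00755) and RN7SK (-2.01 ± 0.58, adjusted p = 0.0135) were lower and none was higher. Of all tested genes, 20.8% were lower and 19.2% higher. RMRP was lower with Ento too (-1.83 ± 0.53, adjusted p = 0.0471), beside 3.66% of all tested genes. RN7SK was lower with AZD too (-1.79 ± 0.58, adjusted p = 0.0390), beside 12.7%. The sum of the 17 was 18.8, 11.3 and 5.82 CPM with DMSO and 6.11, 6.77 and 5.19 CPM with Ento+AZD, so that the DMSO libraries 1 and 2 stood above the rest while DMSO library 3 did not. The part of such RNA in the values of the cluster genes was not tested.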

How the data were processed

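RNA of 12 SU-DHL-4 libraries (4 groups, 3 libraries each) was analysed. The authors enriched poly(A) RNA, sequenced single reads of 75 bases, removed adapters (CutAdapt, run by TrimGalore), and used Rsubread for alignment to GRCh38.p13 and for counting per gene. The submitters' processing notes also list hg19 and bcl2fastq 2.19. The deposited counts are whole reads per gene symbol, without normalization. Counting settings and annotation release are not given in the sources used here. A second deposited table of normalized values was not used.

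The members and gene lists were chosen with earlier results of these data known. Members were classed by symbol. Counts were analysed with edgeR 4.0.16 in R 4.3.3, following the study's model of treatment and batch, for which the replicate number was taken here as the batch, an assumption: filterByExpr by group (minimum count 10, minimum total 15), TMM, no intercept, glmQLFTest, and adjustment by Benjamini-Hochberg over all 16835 tested genes. Calls had an adjusted p under 0.05 and DEGs also an absolute log2 fold change over 1. SE is |log2 fold change| over the root of the F statistic. Scripts were tested on simulated counts. CPM are counts over TMM-scaled library sizes. Within groups, libraries were further apart than sampling noise (chi-square per degree of freedom 8.21 to 48.5). P-values measure the spread between these libraries that is left after treatment group and replicate number are fitted. Separate cultures are not described for each library.

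Deviations from the group means correlated at 0.22 to 0.716 between libraries of the same number (18 pairs) and at -0.64 to 0.336 between those of different numbers (36 pairs), so that the numbers, which come from the sample labels, were taken to pair the libraries. Positions and shared 75-base stretches come from GENCODE release 44 on GRCh38, and gene ends and promoters from RefSeq, GRCh38.p14, in which all 64 members matched by symbol. Named genes were every variant, the 5 cluster genes with the highest mean CPM, up to 5 called cluster genes per direction and exposure, genes at the ends of printed ranges, and from the lists on histone processing, chaperones and S phase the 3 with the smallest adjusted p with Ento+AZD besides SLBP, NPAT, CASP8AP2 and CHAF1B. Genes named beside these (neighbours, near-copies, RMRP and RN7SK) were chosen after their values were seen. Alternatives were a model without the replicate block, RLE size factors, DESeq2 1.42.0, no filter on low counts, and leaving out each library. The split by GENCODE ends and sums without H2BC12 were added after the data were seen.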

Additional observations from a re-analysis of the deposited data

How the results depend on the processing

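The replicate block decided most calls. Without the replicate block, called cluster genes went from 2 to 0 with AZD and from 9 to 1 with Ento+AZD. Called variants went from 2 to 0 with AZD and from 4 to 0 with Ento+AZD. Called histone genes went to 0 in Ento+AZD against Ento and against AZD. Calls over all tested genes fell as well, from 3745 to 326 with AZD and from 6736 to 2398 with Ento+AZD. They fell from 3440 to 206 against Ento and from 2001 to 17 against AZD. DESeq2 with the block called 1 cluster gene with AZD and 1 variant with Ento, where it called 3340 and 1342 of all tested genes. Without a filter on low counts, 1 cluster gene and 3 variants were called with Ento, 4 and 4 with AZD, and 6 histone genes in Ento+AZD against Ento. Leaving out 1 library gave 0 called cluster genes and 0 to 2 variants with Ento, 0 to 3 and 0 to 5 with AZD, 4 to 10 and 3 to 5 with Ento+AZD, 0 to 6 histone genes against Ento, 0 to 2 against AZD and 0 to 1 in the interaction. The counts without the filter and with 1 library left out have no share of all tested genes beside them here. The cause of these changes was not tested, beyond the fewer libraries or the other genes that an alternative entails. Ratios of the summed CPM to DMSO moved by less than the spread of the libraries under all alternatives run. Of 320 values of 20 called gene comparisons under the alternatives, none changed sign and 67 lost the call, 19 of them without the replicate block. H2BC12 with Ento+AZD kept its call under all 16.

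Depth limits the cluster genes: 36 of 52 were too low to test, and a single count is worth up to 0.0564 CPM. A difference that was not called is not shown to be absent, and depth and the spread between libraries were not separated.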

Other observations

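Pseudogene symbols were not members, but some held more counts than the cluster genes. H2AZP3, a pseudogene of H2AZ1, had 37.0, 29.3 and 34.7 CPM with DMSO and 22.4, 10.5 and 25.8 CPM with Ento+AZD (log2 fold change -0.87 ± 0.15 SE, adjusted p = 4.13e-04 by edgeR). H2AZP1 (0.499 times DMSO, adjusted p = 0.00336) and H2AZP2 (-0.97 ± 0.24, adjusted p = 0.00551) were also lower. Of the 75-base stretches of the H2AZ1 transcript, 2.1% also occur in another annotated gene, H2AZP3. How reads that match both H2AZ1 and a copy were assigned is not given in the sources used here. These rows can therefore not be taken as independent of H2AZ1.

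Without the filter on low counts, 2 cluster genes that were too low to test were called lower. H1-5, another somatic linker histone gene, had 22, 8 and 8 counts with DMSO, 3, 0 and 5 with AZD and 3, 2 and 5 with Ento+AZD, with log2 fold changes of -2.03 ± 0.59 with AZD (adjusted p = 0.00631) and -1.56 ± 0.56 with Ento+AZD (adjusted p = 0.0275). H3C2 had 12, 4 and 6 counts with DMSO and 1 in each of the Ento+AZD libraries (-2.41 ± 0.90, adjusted p = 0.0348). The median log2 fold change of the cluster genes with AZD was 0.29 over the 16 tested with the filter and -0.24 over those kept without it. With Ento+AZD these medians were -0.04 and -0.59.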
